A study of Mus musculus with 4 samples.

Results

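The liver genes described here are Ppara, which encodes the fatty acid receptor PPARA, and 8 genes known as its targets in the omega oxidation of fatty acids, in peroxisomal oxidation and in the handling of acyl-CoA: Cyp4a10, Cyp4a14, Cyp4a12b, Acot1, Vnn1, Ehhadh, Pex11a and Decr2. They were taken by symbol, as every probe set to which the platform annotation gives 1 of these 9 symbols and no other. That rule found 8 of the 9 genes with 1 probe set each, 8 of 8251 genes and of 12488 probe sets on the array, and Decr2 was not analysed here. The genes were picked knowing how they differ between the groups and how far apart the arrays of a group lie, so the values of these 8 probe sets are a description and carry no test.

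RNA from whole liver was measured on Affymetrix MG_U74Av2 arrays, 2 from PEPCK-TAg and 2 from wild-type (WT) mice. In PEPCK-TAg mice a transgene puts both SV40 T antigens, large and small, behind the promoter of Pck1, the gene of phosphoenolpyruvate carboxykinase. WT mice have no transgene. All mice were male B6SJL hybrids, 58 to 60 days old, that ate a diet of 10% protein and 70% carbohydrate freely for 4 weeks after weaning. The promoter that drives the transgene is active in hepatocytes and in other tissues, and in liver it responds to fasting and feeding. The study compared the 2 genotypes, and the labels do not say whether the 2 arrays of a genotype came from separate animals, so the spread between them may be technical.

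PPARA is a nuclear receptor that pairs with a retinoid X receptor and binds DNA at a direct repeat of a short half-site, the PPAR response element. Fatty acids activate it, and in rodent liver, where fasting raises the supply of fatty acids, it turns on genes for their oxidation. Enzymes of the Cyp4a family hydroxylate fatty acids at the omega end in the endoplasmic reticulum, the resulting dicarboxylic acids are shortened in peroxisomes, and peroxisomes multiply in rodents given drugs that activate the receptor.

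Promoters are shown for Acot1, Ehhadh and Pex11a, the 3 genes that have both wide gaps between arrays and an entry in the RefSeq promoter table (GRCm38.p6, 250 bases before to 50 after the start of the gene). The windows are chr12:84009252-84009551 on the plus strand for Acot1, chr16:21787785-21788084 on the minus strand for Ehhadh and chr7:79743082-79743381 on the minus strand for Pex11a. They read 5′ to 3′ along the gene, with capitals marking the CCAAT box (CCAAT) and the GC box (GGGCGG), each on either strand.
Acot1: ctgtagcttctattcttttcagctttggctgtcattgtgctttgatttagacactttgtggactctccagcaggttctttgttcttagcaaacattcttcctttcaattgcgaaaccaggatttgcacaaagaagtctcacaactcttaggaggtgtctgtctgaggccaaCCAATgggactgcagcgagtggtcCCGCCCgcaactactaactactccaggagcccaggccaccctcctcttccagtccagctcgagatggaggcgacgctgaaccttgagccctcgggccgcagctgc
Ehhadh: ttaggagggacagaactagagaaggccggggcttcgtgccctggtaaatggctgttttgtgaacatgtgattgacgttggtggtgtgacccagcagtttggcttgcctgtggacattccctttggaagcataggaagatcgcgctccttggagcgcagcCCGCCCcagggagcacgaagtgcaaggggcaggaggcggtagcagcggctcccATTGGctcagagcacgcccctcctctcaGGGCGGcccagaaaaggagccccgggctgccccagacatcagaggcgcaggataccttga
Pex11a: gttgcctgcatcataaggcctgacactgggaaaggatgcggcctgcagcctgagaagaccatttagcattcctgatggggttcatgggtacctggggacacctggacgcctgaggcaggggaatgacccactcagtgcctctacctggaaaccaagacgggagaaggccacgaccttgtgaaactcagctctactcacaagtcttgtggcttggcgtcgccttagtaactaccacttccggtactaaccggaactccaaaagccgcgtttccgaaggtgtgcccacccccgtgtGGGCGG

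Of the 9 genes, 5 matched the promoter table, namely Ppara, Acot1, Ehhadh, Pex11a and Decr2, while Cyp4a10, Cyp4a14, Cyp4a12b and Vnn1 had no entry. The perfect response element AGGTCANAGGTCA, searched on both strands, was in 0 of the 5 windows and in 0.0396% of 32851 promoters of the same length. The looser AGGNCANAGGNCA was in 0 of the 5 and in 0.381% of all promoters, and the half-site AGGTCA in 0 of the 5 and in 16.3% of all. A missing match says only that these letters are not in this window of 300 bases. The CCAAT box was in 2 of the 5, from base -79 to base -75 in Acot1 and, on the opposite strand, from base -38 to base -34 in Ehhadh, and in 37.4% of all promoters. The GC box was in 5 of the 5 and in 35.7% of all promoters. No 2 of these matches overlapped in any of the 5 windows.

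The 4 arrays had the same mean signal, 250.2 after trimming, and across probe sets their log2 signals correlated with r = 0.977 between the PEPCK-TAg arrays, 0.975 between the WT arrays and 0.943 to 0.954 between the groups. Hepatocyte markers summed to 63105 and 55814 in PEPCK-TAg liver, against 82226 and 72840 in WT liver, with 0 of the 10 measured markers past the limma threshold. All 10 were below 0 on the log2 scale, with a median of -0.35, and 5 of the 10 were lower at an unadjusted p under 0.05. The actin 3′ to 5′ ratio was 5.06 and 4.79 in PEPCK-TAg, against 4.87 and 4.06 in WT, and that of Gapdh was 3.36 and 2.95, against 3.67 and 3.80. The geometric mean signal of 9 bacterial and phage spike-in probe sets was 666 and 604 in PEPCK-TAg, against 833 and 1653 in WT, so WT replicate 2 was the brightest array there. The 4 arrays shared chip lot, fluidics station, hybridization day and scan day, and each was washed in a fluidics module of its own.

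Ppara itself had signals of 191.1 and 225.1 on the PEPCK-TAg arrays, against 318.9 and 338.8 on the WT arrays. The groups did not overlap, and both arrays of each group lay close together. The difference, PEPCK-TAg minus WT, was -0.63 ± 0.17 (SE of the limma fit, n = 2 arrays each) on the log2(signal + 13) scale, on which all log2 values here are given. It stayed between -0.74 and -0.52 when each array was left out in turn. In whole liver, fewer cells of a type and less RNA per cell cannot be told apart.

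The Cyp4a genes for omega hydroxylation came apart into a pair with an extreme spread and a gene with almost none. Cyp4a14, a fatty acid hydroxylase gene strongly induced by PPARA activators, had signals of 253.6 and 444.5 on the PEPCK-TAg arrays, against 39.2 and 2543.4 on the WT arrays. Both PEPCK-TAg arrays thus lay between the WT arrays, of which replicate 2 was 64.9 times as bright as replicate 1. Cyp4a10, its neighbour on chromosome 4 and a hydroxylase of the same family, had 351.9 and 756.7 in PEPCK-TAg, against 95.4 and 2432.1 in WT. The order of the 4 arrays was the same as for Cyp4a14, and WT replicate 2 was 25.5 times as bright as WT replicate 1. The probe set of Cyp4a10 has a suffix that marks sequence which may be shared within a gene family, so its signal can hold that of related Cyp4a genes, Cyp4a14 among them.

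The 2 genes' group differences were 0.04 ± 1.28 for Cyp4a10 and -0.06 ± 1.57 for Cyp4a14 (SE), in each case an average over WT arrays on opposite sides of PEPCK-TAg. The mean PEPCK-TAg signal of Cyp4a14 was 8.90 times that of WT replicate 1 and 0.137 times that of WT replicate 2. For Cyp4a10 the same ratios were 5.81 and 0.228. With WT replicate 1 left out the differences were -2.21 for Cyp4a10 and -2.87 for Cyp4a14, and with WT replicate 2 left out they were 2.29 and 2.74. Neither gene therefore has a direction between the genotypes in these data, because 1 WT array sets it.

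Cyp4a12b, on the same chromosome and of the same family, is a fatty acid and arachidonic acid hydroxylase gene typical of male liver. It had signals of 1276.2 and 1408.8 in PEPCK-TAg, against 2848.3 and 2595.9 in WT. The groups were apart and each pair of arrays agreed closely, with WT replicate 2 at 0.911 times WT replicate 1, the opposite order to that of Cyp4a10 and Cyp4a14. The difference was -1.01 ± 0.15 (SE) in log2, and it kept to between -1.08 and -0.94 with any 1 array left out. The older symbol Cyp4a12 stands for both Cyp4a12a and Cyp4a12b in the RefSeq gene table, so the probe set may read both genes.

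**Figure D1:**
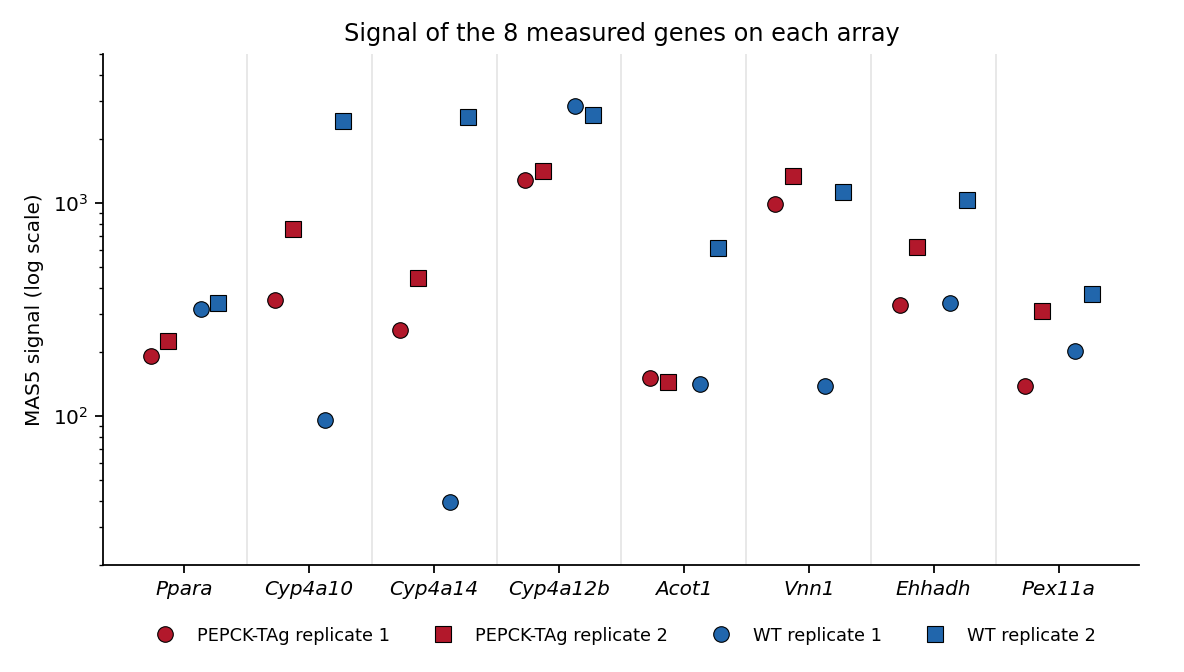
MAS5 signal (log axis) of the 8 measured genes on each of the 4 arrays, 1 point per array, PEPCK-TAg left of WT for each gene. For Cyp4a10, Cyp4a14 and Acot1 both PEPCK-TAg points lie between the 2 WT points, while for Ppara and Cyp4a12b both lie below them.

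Acot1 and Vnn1 take part in the turnover of acyl-CoA and of its cofactor. Acot1, the cytosolic thioesterase gene that frees fatty acids from coenzyme A, had signals of 150.0 and 144.1 on the PEPCK-TAg arrays, against 140.6 and 614.0 on the WT arrays. WT replicate 2 alone stood out, at 4.37 times WT replicate 1, while the other 3 arrays lay together. The difference of -0.96 ± 0.58 (SE) in log2 became 0.06 without WT replicate 2 and -1.97 without WT replicate 1. Vnn1 encodes pantetheinase, an enzyme that recycles the vitamin part of coenzyme A, and had 989.7 and 1342.4 in PEPCK-TAg, against 138.4 and 1125.7 in WT. Here WT replicate 1 alone stood out on the low side, and WT replicate 2 lay between the PEPCK-TAg arrays. The difference of 1.49 ± 0.82 (SE) in log2 became 0.03 without WT replicate 1 and 2.94 without WT replicate 2.

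The peroxisomal genes spread in both groups. Ehhadh, the bifunctional enzyme gene of peroxisomal beta-oxidation, had signals of 331.3 and 619.8 in PEPCK-TAg, against 340.5 and 1031.5 in WT. In both genotypes replicate 1 was the dimmer array, and the 2 dimmer arrays lay close together. Pex11a, whose product takes part in the division of peroxisomes, had 138.6 and 310.5 in PEPCK-TAg, against 202.4 and 375.2 in WT. The groups overlapped for both genes, and the log2 differences were -0.38 ± 0.52 for Ehhadh and -0.38 ± 0.41 for Pex11a (SE). Leaving out 1 array gave -1.16 to 0.40 for Ehhadh and -0.93 to 0.16 for Pex11a, so the sign of both turned with the array left out. Decr2 encodes a peroxisomal reductase needed for unsaturated fatty acids and has no value here.

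All 8 measured genes passed the filter on low values. Of the 7453 probe sets tested, 9.47% passed the threshold, a Benjamini-Hochberg adjusted p under 0.05 by limma, with 6.40% higher and 3.07% lower in PEPCK-TAg liver. Of the 8 genes, 0 were past it on the higher side and 1, Cyp4a12b, on the lower side. The groups were apart in 2 of the 8, Ppara and Cyp4a12b, where 56.5% of all tested probe sets have groups apart. The median log2 difference was -0.38 over the 8 genes and 0.01 over all tested probe sets, and 6 of the 8 differences were below 0. Since the genes were picked on this contrast, nothing is read from these counts.

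**Figure D2:**
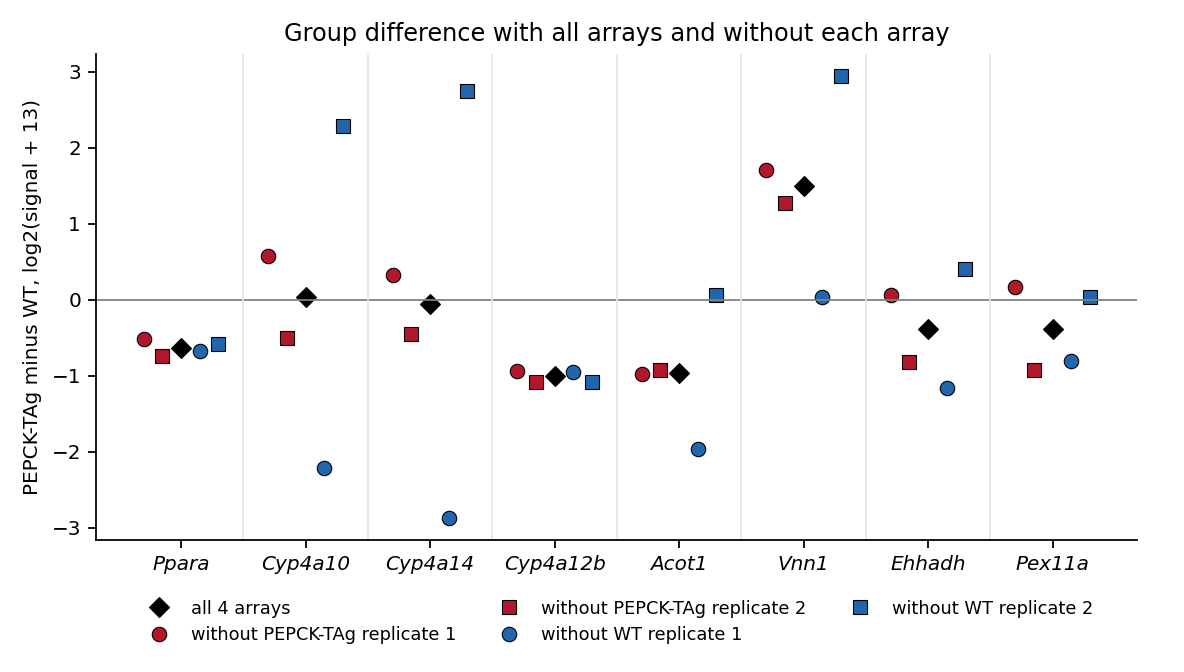
Difference in log2(signal + 13), PEPCK-TAg minus WT, of the 8 measured genes, with all 4 arrays (diamonds) and with each array left out (circles and squares). Ppara and Cyp4a12b stay below 0 in every fit shown, Vnn1 stays above 0, and the 5 others cross 0 depending on the array left out.

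The distance between the WT arrays set most of these genes apart from the rest of the liver transcripts, as the choice of the genes already implied. Replicate 2 minus replicate 1 in WT was 5.61 in log2 for Cyp4a14 and 4.50 for Cyp4a10, the widest and the next widest gaps among the 7453 tested probe sets. Vnn1, with 2.91, had rank 5, Acot1, with 2.03, rank 20, and Ehhadh, with 1.56, rank 61. Pex11a had rank 396 with a gap of 0.85. A gap of over 2 in size was found in 21 of all tested probe sets, 4 of which are these genes. Ppara and Cyp4a12b lay at the other end, with gaps of 0.08 and -0.13 and ranks 5993 and 5160.

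The PEPCK-TAg arrays were closer together for the Cyp4a pair and for Vnn1. Replicate 2 minus replicate 1 was 1.08 in log2 for Cyp4a10, 0.78 for Cyp4a14 and 0.43 for Vnn1 in PEPCK-TAg, against the WT gaps above. Acot1 had almost none, -0.05. Pex11a had a gap of 1.09 in PEPCK-TAg, against 0.85 in WT. The median size of the gap over the 8 genes was 0.61 in PEPCK-TAg and 1.80 in WT, against 0.19 and 0.23 over all tested probe sets. In 7 of the 8 genes replicate 2 was the brighter array in PEPCK-TAg, and in 7 of the 8 in WT, with 6 of the 8 in both, where these shares were 49.4%, 47.4% and 25.8% over all tested probe sets. The replicate numbers of the titles pair no animals as far as the labels say.

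**Figure D3:**
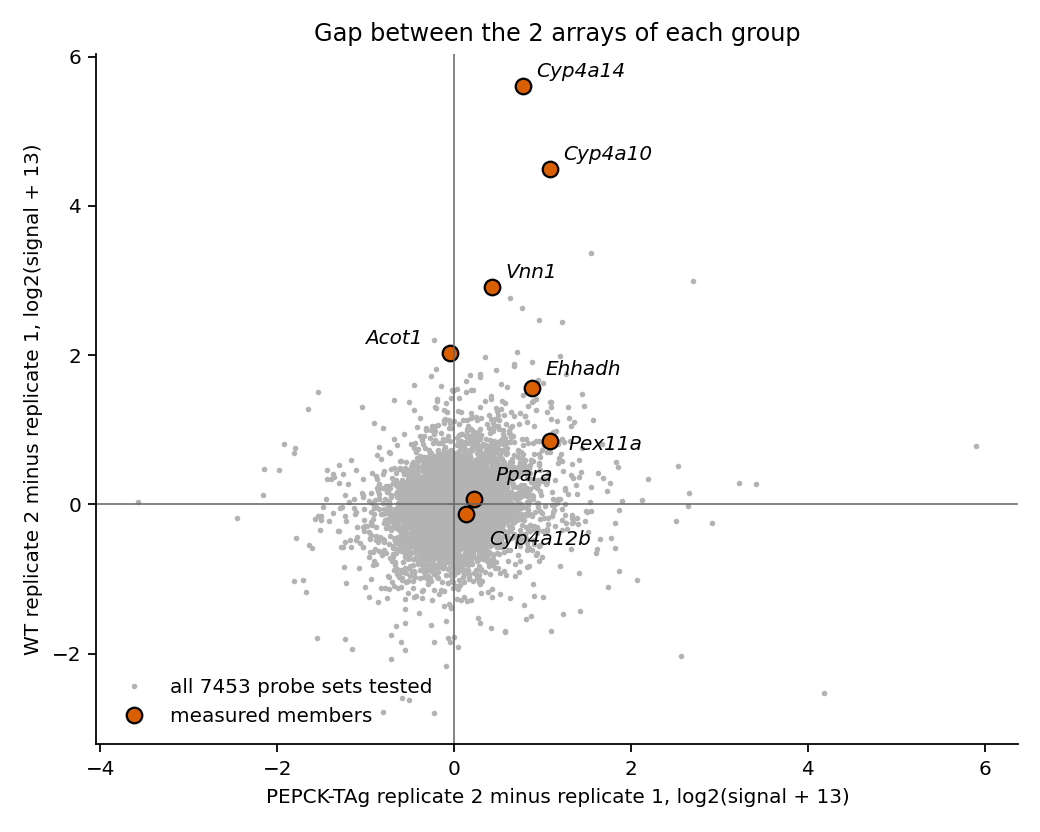
Replicate 2 minus replicate 1 in log2(signal + 13), for PEPCK-TAg on the horizontal and WT on the vertical axis, 1 point for each of the 7453 tested probe sets, with the 8 measured genes named. Cyp4a14 and Cyp4a10 lie highest, at WT gaps of 5.61 and 4.50, and most probe sets lie near 0 on both axes.

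Other genes of the pathway were read from lists of 151 genes. The array held 102 of them, and 88 passed the filter. In PEPCK-TAg liver 2 of the 88 were higher and 13 lower past the threshold, where 6.83% of all genes were higher and 3.01% lower (1 probe set a gene). The median log2 difference was -0.27, against 0.01 over all genes, and 75.0% of the 88 were below 0, against 48.9% of all genes. The hepatocyte markers lay lower in PEPCK-TAg as well, with a median of -0.35 and 10 of 10 below 0, and their part in the pathway's shift was not tested. With each array centred on its median signal the counts were 2 higher and 23 lower, a scaling that moves the median of all probe sets to -0.14 and their split to 403 higher and 409 lower, against 477 and 229 in the deposited scale. Of the 15 calls, 4 held in each of the 4 fits that left out an array, those of Ephx2, Slc27a5, Acot9 and Lpl.

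Among 12 measured genes of peroxisomal beta- and alpha-oxidation, 2 fell, and the median difference was -0.52. Ephx2, the soluble epoxide hydrolase gene, had 1122.0 and 1012.0 in PEPCK-TAg, against 2081.6 and 2606.3 in WT, a difference of -1.12 ± 0.17 (SE; limma adjusted p = 0.0124). Amacr, the racemase gene for branched-chain and bile acid intermediates, had 576.6 and 592.5 in PEPCK-TAg, against 887.5 and 1169.0 in WT (-0.79, limma adjusted p = 0.0452). The call of Amacr was lost in 3 of the 4 fits that left out an array, at an adjusted p of up to 0.121. Catalase, Cat, differed by -0.53 and missed the threshold (limma adjusted p = 0.0521), and its second probe set differed by -0.05 (limma adjusted p = 0.908).

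Among 10 measured genes of omega oxidation outside the Cyp4a members, 1 fell. Aldh2, an aldehyde dehydrogenase gene, had 3012.5 and 3561.6 in PEPCK-TAg, against 4853.9 and 5541.9 in WT (-0.66, limma adjusted p = 0.0430), and its call was lost whichever array was left out, at adjusted p-values of 0.0684 to 0.199. Among 12 genes of peroxisome transport and biogenesis, 1 fell, Pex6, an ATPase gene of peroxisomal import, by 1.22 on the log2 scale (limma adjusted p = 0.0432). Its signals were 176.1 and 156.6 in PEPCK-TAg, against 301.4 and 543.9 in WT, and the call was lost in 3 of the 4 fits without an array, with adjusted p up to 0.0828.

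Among 13 genes of acyl-CoA activation and hydrolysis, 1 rose and 2 fell. The fatty acid transport and bile acid activation gene Slc27a5 had 1575.1 and 1685.0 in PEPCK-TAg, against 3486.4 and 3191.0 in WT (-1.03, limma adjusted p = 0.00842). Slc27a2, a very-long-chain acyl-CoA synthetase gene, had 3276.2 and 3167.2 in PEPCK-TAg, against 5052.2 and 6041.3 in WT (-0.78, adjusted p = 0.0231), and lost its call in 3 of the 4 fits without an array, with adjusted p up to 0.0842. Acot9, a mitochondrial thioesterase gene, rose: it had 298.3 and 429.0 in PEPCK-TAg, against 40.4 and 82.0 in WT (2.38 ± 0.32, limma adjusted p = 0.00829). Its other probe set rose by 1.77. Vnn3, the chromosomal neighbour of Vnn1, had 317.9 and 499.3 in PEPCK-TAg, against 120.0 and 257.1 in WT, which did not pass (1.12, adjusted p = 0.115). Fabp1, the liver fatty acid-binding protein gene, did not pass either (-0.37, adjusted p = 0.126).

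Among 29 other PPARA targets, 1 rose and 6 fell. Lpl, the lipoprotein lipase gene, had 1529.1 and 1333.0 in PEPCK-TAg, against 233.0 and 150.2 in WT, a difference of 2.85 ± 0.23 (SE; limma adjusted p = 0.00179). The genes that fell were Aqp9 (-1.14), a glycerol channel gene, Me1 (-0.94), the malic enzyme gene, Lpin1 (-0.80), Gpd1 (-0.74), Apoa2 (-0.74) and Fads1 (-0.70), and each of these 6 calls was lost in at least 2 of the 4 fits without an array. Second probe sets of Apoa2 (-0.14) and Gpd1 (-0.58) did not pass. Cpt1a, the gate of mitochondrial fatty acid entry, differed by 0.13 (adjusted p = 0.714), Pdk4 by -0.24 (0.552) and Angptl4 by -0.67 (0.125), none past the limma threshold. Other tested probe sets of Angptl4 differed by -0.73 and 0.14 and did not pass either. Fgf21 was not analysed here, and Cd36 was below the filter, with 37.1 and 77.0 in PEPCK-TAg, against 10.4 and 11.7 in WT. Of 13 partners and related receptors, 2 fell, Lpin1 and the bile acid receptor gene Nr1h4 (604.6 and 510.4 in PEPCK-TAg, against 1189.9 and 968.3 in WT), whose call was lost without PEPCK-TAg replicate 2 and without WT replicate 1. Rxra, the partner receptor of PPARA, differed by -0.22 (adjusted p = 0.471).

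**Figure D4:**
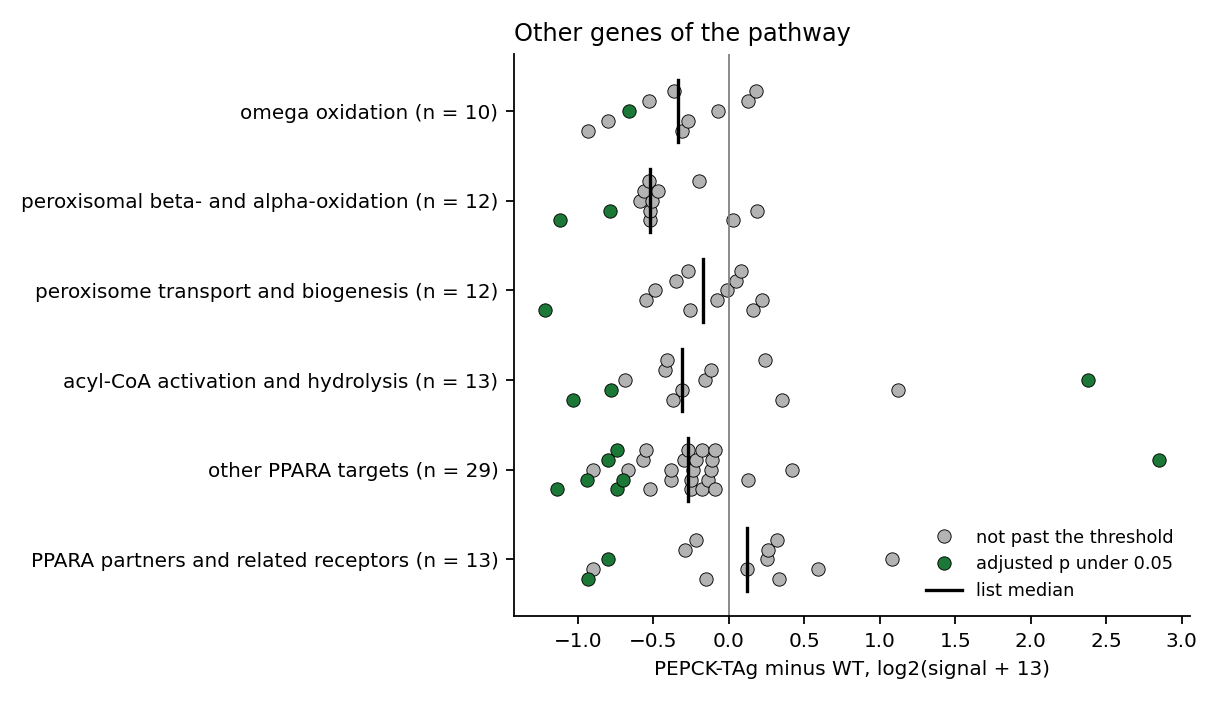
Difference in log2(signal + 13), PEPCK-TAg minus WT, of the 88 pathway genes that passed the filter, 1 point a gene and 1 row a list, with genes past the threshold in green, list medians as bars and Lpin1 in both of its lists. Lpl and Acot9 lie farthest to the right, at 2.85 and 2.38, and 66 of the 88 genes lie left of 0.

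In the wider pathway the gap between the WT arrays was read by sign, so opposite gaps cancel in its median. WT replicate 2 was above WT replicate 1 in 65.9% of the 88 genes, against 47.7% of all genes, and the median gap was 0.15 in log2, against -0.02. In PEPCK-TAg, replicate 2 was above replicate 1 in 46 of the 88, against 50.1% of all genes. By list, the brighter array was WT replicate 2 in 10 of 12 genes of peroxisomal oxidation and in 22 of 29 other PPARA targets, but in 6 of 12 genes of peroxisome biogenesis. Of the 88 genes 3 were among the 100 widest WT gaps, named here after their values were seen. Aldh3a2, the fatty aldehyde dehydrogenase gene, had 687.1 and 1334.4 in PEPCK-TAg, against 467.1 and 1509.4 in WT, and its second probe set had 501.7 and 645.2, against 310.3 and 1254.4. The others were Pparg, with 112.5 and 217.6 in PEPCK-TAg, against 37.0 and 116.8 in WT, and Crat, the carnitine acetyltransferase gene, with 209.5 and 195.2, against 118.7 and 323.9.

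The list of genes that respond to food joins genes raised by fasting, such as Pck1, with genes raised by feeding, such as Pklr. WT replicate 2 was the brighter array in 1 of the 14 genes, against 47.7% of all genes, with a median gap of -0.51. In PEPCK-TAg replicate 2 was the brighter array in 4 of the 14, against 50.1% of all genes, with a median gap of -0.27. Past the threshold, 3 of the 14 fell in PEPCK-TAg (Me1, Pklr and Elovl6). Each of these 3 calls was lost in 2 of the 4 fits without an array, at adjusted p-values of up to 0.0699 for Pklr and 0.124 for Elovl6. Pck1, whose promoter drives the transgene, had 1605.4 and 565.5 in PEPCK-TAg, against 2371.9 and 2307.9 in WT, and did not pass (-1.28, limma adjusted p = 0.121). Igfbp1, which fasting raises, had 4192.7 and 1702.8 in PEPCK-TAg, against 2121.5 and 2047.4 in WT. Of 12 clock genes 1 passed, Nr1d1, with 113.5 and 178.4 in PEPCK-TAg, against 293.5 and 367.8 in WT, a call lost in 3 of the 4 fits without an array. Among the clock genes replicate 2 was the brighter array for 5 of the 12 in PEPCK-TAg and 7 of the 12 in WT, with median gaps of -0.12 and 0.01. Single clock genes went both ways in PEPCK-TAg, with gaps of -1.02 for Arntl and 0.60 for Nr1d1. Opposite gaps cancel in such a count and median, so nothing is read from them. Per1 had 61.1 and 94.2 in PEPCK-TAg, against 13.2 and 67.2 in WT, and Arntl, with the dimmer signal on replicate 2, had 452.1 and 215.9, against 446.3 and 345.0. Below the filter, Dbp had 6.6 and 90.8, against 10.9 and 49.4, and Per2 had 32.4 and 71.2, against 54.9 and 29.1.

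Markers of macrophages summed to 10511 and 13778 in PEPCK-TAg, against 3062 and 5650 in WT. Replicate 2 was the brighter array in 10 of the 11 macrophage markers in each genotype, against 50.1% of all genes in PEPCK-TAg and 47.7% in WT. In PEPCK-TAg it was also the brighter array in 8 of 9 endothelial, 6 of 7 stellate and 4 of 4 lymphocyte markers. By contrast, it was brighter there in 1 of 10 hepatocyte and 1 of 9 dividing cell markers. In WT, replicate 2 was brighter in 5 of 9 endothelial, 3 of 7 stellate and 2 of 4 lymphocyte markers. For hepatocyte and dividing cell markers the WT counts were 2 of 10 and 2 of 9. Past the threshold were 5 of the 11 macrophage markers, all higher in PEPCK-TAg (Clec4f, Cd5l, C1qb, Cd14 and Mpeg1). The calls of Clec4f and C1qb were lost in 2 of the 4 fits without an array. Markers of dividing cells summed to 8815 and 6858 in PEPCK-TAg, against 935 and 861 in WT, with 9 of 9 higher. Red blood cell markers summed to 820 and 1058, against 1133 and 2529, and lymphocyte markers to 373 and 600, against 419 and 475. Summed markers of endothelium were 1937 and 2750 in PEPCK-TAg, against 2998 and 3063 in WT, of stellate cells 3325 and 4848, against 3601 and 3409, and of bile duct 90 and 133, against 106 and 88. The stellate gene Col3a1 rose, a call lost in 3 of the 4 fits without an array. Adipocyte markers summed to 7716 and 7733 in PEPCK-TAg, against 11546 and 9283 in WT. Most of that sum was Car3, with 7034.9 and 7063.7, against 10957.3 and 8780.7, a gene that liver also expresses, and the median difference of the 5 adipocyte markers was 0.15. No marker was listed at 0. Among liver zone markers, 1 of 8 pericentral genes rose (Gstm3) and 2 fell (Cyp1a2 and Lect2), and 1 of 8 periportal genes fell (Cyp2f2). Without 1 array, the call of Lect2 was lost in 3 of the 4 fits, that of Gstm3 in 2 and that of Cyp2f2 in 1, while that of Cyp1a2 held in each. The part of feeding state, time of day, other cell types, liver zones and spike-in or RNA quality in the spread and the differences of the 8 genes was not tested.

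By the likeness of their signals over the 4 arrays, Cyp4a10 was the gene nearest to Cyp4a14 among 5649 genes. The distance, taken between log2 values centred on each gene's mean, was 0.83, where the median gene lay at 4.06. Both genes were picked with their wide gaps known, so their nearness was partly set in advance. The Cyp4a10 probe set may also read Cyp4a14. Klf2 (2.31), an endothelial and blood cell transcription factor gene, Marco (2.46), a macrophage scavenger receptor gene, Vnn1 (2.48) and Ebi3 (2.62), a cytokine subunit gene, followed at far greater distances. Marco had 25.3 and 235.9 in PEPCK-TAg, against 6.7 and 144.0 in WT. On WT replicate 1 Klf2 and Ebi3 were dim as well, with signals of 12.2 and 21.0. Cyp4a12b had close company: Mogs (0.03), Slc27a5 (0.04), Elovl5 (0.06), Rgn (0.07) and Me1 (0.08) had nearly its profile, with a median distance of 1.10 over all genes. Their log2 differences lay between -1.03 and -0.94. Over 4 arrays this likeness is a description only.

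**Figure D5:**
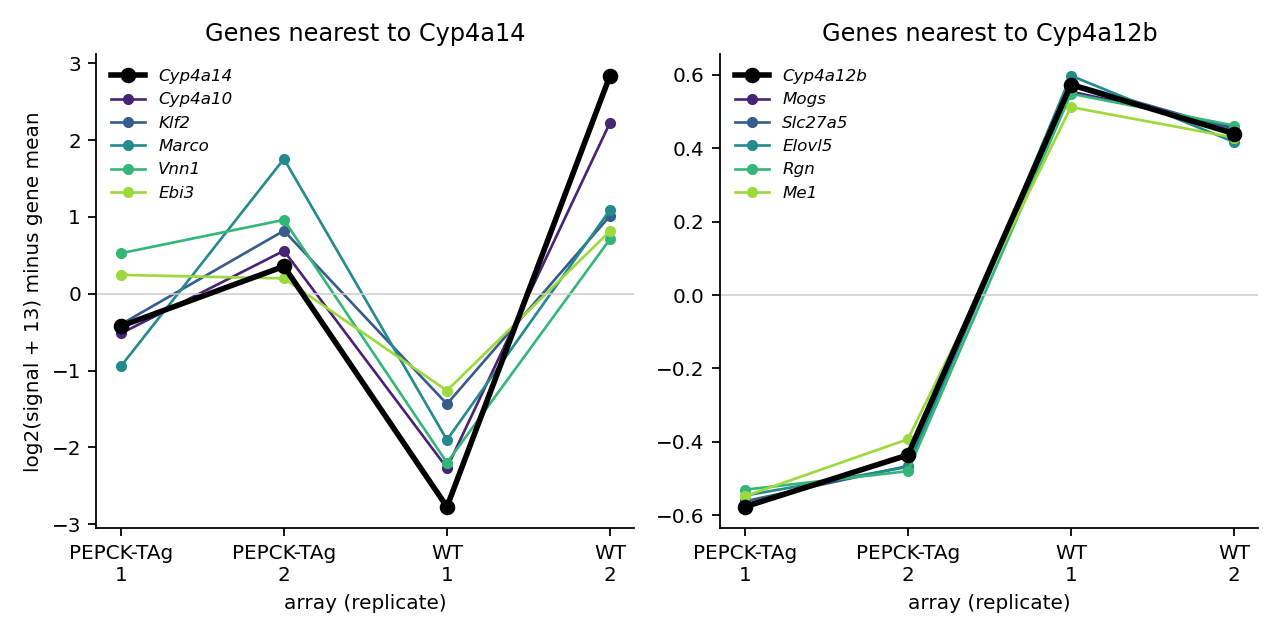
Signal over the 4 arrays, as log2(signal + 13) minus the gene's mean, of Cyp4a14 (left) and Cyp4a12b (right) with the 5 genes nearest to each. The genes beside Cyp4a14 share a low WT replicate 1 and spread widely otherwise, whereas those beside Cyp4a12b overlie one another.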

How the data were processed

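Liver RNA was measured on 4 arrays, grouped by the genotype in the sample titles. Per the submitters' processing notes, the authors computed the deposited signals with MAS5, and the values are linear, 1 per probe set. For the version and the scaling target, the sources used here give nothing. The experiment files hold instrument records only.

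The genes and lists were chosen with earlier results of these data known. Signals were used without further normalization as log2(signal + 13), where 13 is 5% of the trimmed mean, a scale that understates the change of dim genes. The 7453 non-control probe sets with a mean at or above the 40th percentile were kept (lowest near 48.1). PEPCK-TAg was compared with WT by limma 3.58.1 in R 4.3.3 (lmFit, eBayes with a trend), two-sided. Its p-values were adjusted over all kept probe sets by Benjamini-Hochberg. The fit was tested on simulated data whose noise followed signal level alone, so that test did not cover gaps as wide as in these genes. The number of arrays limits the precision, with 2 residual and 4.61 prior degrees of freedom.

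Gene symbols came from the platform annotation, which gave 10833 probe sets 1 symbol, 396 several and 1193 none. Of these 10833, 10817 matched the RefSeq gene table of GRCm38.p6 and 0 symbols were updated. The probe set of highest mean stood for a gene, which left 5650 genes. Named were all members and, in each list, genes past the threshold, up to 4 of smallest p, and a fixed set of well-known targets, clock and feeding genes. The 5 genes nearest to the member with the highest mean and to the one with the widest gap were also named. Alternatives were other offsets, filters, normalizations and variance models, a replicate block, the mean over a gene's probe sets, and each array left out. A fit without 1 array kept the filter of the full set, and the group left with 1 array added nothing to its estimated spread.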

Additional observations from a re-analysis of the deposited data

How the results depend on the processing

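The probe sets past the threshold were 477 higher and 229 lower in PEPCK-TAg. Without 1 array the counts were 294 to 401 higher and 94 to 147 lower, and the lower count was 105 with no filter, 409 with median centring and 117 with no variance trend. Pathway genes, 2 higher and 13 lower, were 6 lower with no filter, 23 with median centring and 5 with no trend, and 2 to 3 higher and 5 to 8 lower without 1 array. With a replicate block the lower counts were 444 probe sets and 26 pathway genes, and 4 pathway genes were higher. Deviations of same-numbered arrays correlated at 0.18 across probe sets, but there are only 2 such pairs. Beyond what all 4 arrays shared, the labels and records give same-numbered arrays only their number in common. Of the 8 genes, 0 were higher and 1 lower, and median centring put 2 lower (Ppara joined). The genes were picked on this contrast, so nothing is read from these counts. A fit without 1 array leaves 1 array in a group, whose spread then drops out, so member calls in it are not read. Without WT replicate 2 the log2 differences were 2.29 for Cyp4a10, 2.74 for Cyp4a14, 2.94 for Vnn1, 0.06 for Acot1 and -1.08 for Cyp4a12b. Without WT replicate 1 they were -2.21, -2.87, 0.03, -1.97 and -0.95 in the same order. The median difference of the 8, -0.38, ran from -1.05 to 0.23 without 1 array. The causes were not tested, beyond the fewer arrays or other probe sets each setting uses. Under the 7 other offsets, filters and normalizations Cyp4a14 and Cyp4a10 kept the widest and next widest WT gaps, Vnn1 had ranks 3 to 10 and Acot1 13 to 36. With all arrays in, Ppara differed by -0.78 to -0.59 and Cyp4a12b by -1.16 to -0.88. Dim signals near the filter limit what can be read of Cyp4a14 on WT replicate 1.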
